A study of Homo sapiens with 4 samples.

Results

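The 10 genes described here are 6 aldo-keto reductases (AKR1C1, AKR1C2, AKR1C3, AKR1B1, AKR1A1 and AKR7A2) and 4 redox genes known as targets of the transcription factor NRF2 (NQO1, GCLM, TXNRD1 and HMOX1), out of 60662 genes in the deposited count table. They were taken by symbol from the table. The family was selected with a measured value in view, the low level of AKR1C3 in MATR3 knockout cells, and the other genes by name. Differences of the 10 genes between knockout and wild type are therefore given as a description, with no test.

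The study profiled RNA of MATR3 KO and wild-type (WT) HAP1 cells by long-read Oxford Nanopore sequencing (MinION) of cDNA amplified by PCR, to compare expression with and without matrin 3, a nuclear protein that binds RNA and DNA. The MATR3 KO group held 1 library each of the bought knockout clones 1 and 5, and the WT group held 2 libraries of the WT control line sold with them, clone 4. HAP1 is a near-haploid human cell line that goes back to KBM-7, a chronic myeloid leukaemia, and all 4 libraries came from cells grown without treatment in IMDM with serum and antibiotics. No label names separate cultures, so p-values measure only how these libraries differ, and that spread may be technical. The KO and WT columns carry different date tags, and genotype cannot be told apart from date. Both WT libraries are of clone 4, so genotype also cannot be told apart from other differences between that clone and the KO clones. One WT column also carries the tag FACS (WT A here) and the other the tag test (WT B), and the sources used here do not give their meaning. Since each clone has 1 library, a difference between clone 1 and clone 5 has no replicate check.

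Library totals were 3121759 and 4024026 reads in KO clones 1 and 5, against 3509906 and 5303199 in WT A and WT B. The targeted gene was read in every library: its main model, ENSG00000015479, had 187 and 204 reads in the KO clones and 171 and 304 in WT, and the longer model listed as MATR3 had 27 and 37 against 41 and 43, so transcript counts do not check the knockout labels. A small edit can leave the transcript in place. The haematopoietic markers PTPRC, CD34, CD33, SPI1, HBG1, HBG2 and GATA1 were at 0 in all libraries, and LMO2 and TAL1 together summed to 3.62 to 5.22 CPM (counts scaled to library size) in KO and 3.57 to 4.10 CPM in WT. The 5 epithelial markers (EPCAM, CDH1, KRT8, KRT18 and KRT19) summed to 49.7 to 88.5 CPM in KO and 21.1 to 24.1 CPM in WT. Of the 6 fibroblast markers COL1A2, COL3A1, LUM and DCN were at 0, and the list summed to 2.85 to 6.14 CPM in KO and 3.27 to 5.03 CPM in WT. Of the 3 liver markers TTR was at 0, and the list summed to 1.29 to 1.84 CPM in KO and 1.49 to 2.68 CPM in WT. BCR and ABL1, the genes fused in this leukaemia, were read in all libraries and summed to 2.33 to 3.68 CPM in KO and 2.98 to 3.57 CPM in WT. The part of these markers in the results below was not tested. In bulk RNA, fewer cells that express a gene and less of its RNA per cell cannot be told apart.

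NRF2, encoded by NFE2L2, is held in the cytoplasm and marked for degradation by KEAP1 together with the ubiquitin ligase scaffold CUL3. When reactive compounds modify KEAP1, NRF2 accumulates, pairs with small MAF proteins and binds antioxidant response elements near genes for glutathione synthesis, thioredoxin reduction, NADPH supply and quinone reduction. Aldo-keto reductases are NADPH-dependent enzymes that reduce aldehydes and ketones, and several of the human ones, the AKR1C group in particular, are known NRF2 targets. AKR1C enzymes also act on steroid hormones and prostaglandins.

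AKR1C1, AKR1C2 and AKR1C3 lie side by side on chromosome 10 (hg38, GENCODE 44). AKR1C1 spans 4963253 to 4983283 on the plus strand, AKR1C2 spans 4987775 to 5018031 on the minus strand and AKR1C3 spans 5035354 to 5107686 on the plus strand. Each has 969 coding bases without the stop codon, in 9 exons. Over these bases AKR1C1 and AKR1C2 were 98.0% identical (19 differences), AKR1C1 and AKR1C3 91.4% (83 differences) and AKR1C2 and AKR1C3 91.0% (87 differences). AKR1C3 differed from both others at 76 positions. In coding sequence AKR1C3 is therefore set apart from the others at many bases, and AKR1C1 from AKR1C2 at few. Whether single reads, with their errors and partial lengths, were told apart was not tested. A stretch of exon 4, coding bases 382 to 441, is shown because it sets AKR1C3 apart: capitals mark the positions where the 3 genes are not all alike, and at all 11 of them AKR1C3 differs from both others.
AKR1C1, chr10:4968321-4968380, plus strand: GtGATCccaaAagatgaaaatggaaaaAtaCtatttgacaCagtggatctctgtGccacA
AKR1C2, chr10:4999206-4999265, minus strand: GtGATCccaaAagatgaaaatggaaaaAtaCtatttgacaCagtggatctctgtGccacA
AKR1C3, chr10:5098814-5098873, plus strand: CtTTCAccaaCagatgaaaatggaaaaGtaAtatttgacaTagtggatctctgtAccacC

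A second stretch, coding bases 103 to 162 in exon 2, is shown because it holds 10 of the 19 positions that separate AKR1C1 from AKR1C2. Capitals again mark positions where the 3 genes are not all alike.
AKR1C1, chr10:4965932-4965991, plus strand: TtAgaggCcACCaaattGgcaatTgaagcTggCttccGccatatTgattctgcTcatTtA
AKR1C2, chr10:5001604-5001663, minus strand: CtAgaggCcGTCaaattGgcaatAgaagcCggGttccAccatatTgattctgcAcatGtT
AKR1C3, chr10:5096428-5096487, plus strand: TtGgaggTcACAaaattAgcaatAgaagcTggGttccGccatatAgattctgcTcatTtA

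In the AKR1C cluster, KO clones and WT libraries differed in which gene most reads were assigned to. Of the reads in the 3 rows, most were AKR1C1 in both KO clones and most were AKR1C3 in both WT libraries. This is a description, since the family was selected on AKR1C3. The sum over the rows overlapped between the groups, but with KO clone 5 below both WT libraries it does not show an unchanged total. AKR1C3, which makes testosterone from its precursor androstenedione and reduces prostaglandins, had 4 and 2 reads in KO clones 1 and 5, against 40 and 36 in WT A and WT B. As levels these were 1.23 and 0.517 CPM in the KO clones and 11.9 and 6.71 CPM in WT. Both KO values lay below both WT values. The exact Poisson 95% intervals were 0.335 to 3.14 CPM and 0.0627 to 1.87 CPM in the KO clones and 8.50 to 16.2 CPM and 4.70 to 9.29 CPM in WT, given as a description of the counting error. The mean level was 0.873 ± 0.502 CPM in KO and 9.31 ± 3.67 CPM in WT (SD, n = 2 each), and the fitted log2 fold change was -3.38 (SE 0.57), a 10.4-fold lower level in KO. Without KO clone 1 it was -4.06. These intervals hold the error of counting alone, as copies made by PCR are not separate molecules.

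AKR1C1, which inactivates progesterone by reduction, went the other way, with 34 and 18 reads in KO clones 1 and 5, against 4 and 9 in WT A and WT B. Its levels were 10.4 and 4.66 CPM in the KO clones and 1.19 and 1.68 CPM in WT, so both KO values were above both WT values. KO clone 1 was 2.24 times KO clone 5. The mean was 7.55 ± 4.09 CPM in KO and 1.43 ± 0.345 CPM in WT (SD, n = 2 each), with a fitted log2 fold change of 2.31 (SE 0.53), a 4.96-fold higher level in KO. Without KO clone 1 the fitted log2 fold change of AKR1C1 was 1.65 (SE 0.79). AKR1C2, which inactivates dihydrotestosterone, had 4 and 0 reads in KO clones 1 and 5, against 2 and 0 in WT A and WT B. This was too few to enter the fit, and KO and WT overlapped.

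Summed over the 3 rows, the cluster had 42 and 20 reads in KO clones 1 and 5, against 46 and 45 in WT A and WT B, or 12.9 and 5.17 CPM against 13.7 and 8.39 CPM. KO clone 1 lay within the WT range and KO clone 5 below it. The mean of the sum was 9.03 ± 5.46 CPM in KO and 11.0 ± 3.74 CPM in WT (SD, n = 2 each), and refitted as 1 feature it had a log2 fold change of -0.28 (SE 0.43). This value took either sign when single libraries were left out, at -1.06 without KO clone 1, 0.25 without KO clone 5, 0.09 without WT A and -0.64 without WT B. The share of the cluster's reads assigned to each gene does not depend on library scaling. The intervals of these shares hold the error of counting alone, as copies made by PCR are not separate molecules. AKR1C1 took 81.0% of them in KO clone 1 (95% exact Clopper-Pearson interval 65.9% to 91.4%) and 90.0% in KO clone 5 (68.3% to 98.8%), against 8.70% in WT A (2.42% to 20.8%) and 20% in WT B (9.58% to 34.6%). AKR1C3 took 9.52% in KO clone 1 (2.66% to 22.6%) and 10.0% in KO clone 5 (1.23% to 31.7%), against 87.0% in WT A (73.7% to 95.1%) and 80.0% in WT B (65.4% to 90.4%). AKR1C2 took 9.52% in KO clone 1 and 4.35% in WT A. It was at 0 of 20 reads in KO clone 5, where a floor of 3 reads allows a share of up to 15.0% and the exact interval reaches 16.8%, and at 0 of 45 reads in WT B, where the floor allows up to 6.67% and the exact interval reaches 7.87%. Over each group, AKR1C1, AKR1C2 and AKR1C3 had 52, 4 and 6 of 62 reads in KO, against 13, 2 and 76 of 91 reads in WT. The sources used here do not give how reads that match more than 1 of these genes were counted, and the part of read assignment in these shares was not tested.

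**Figure D1:**
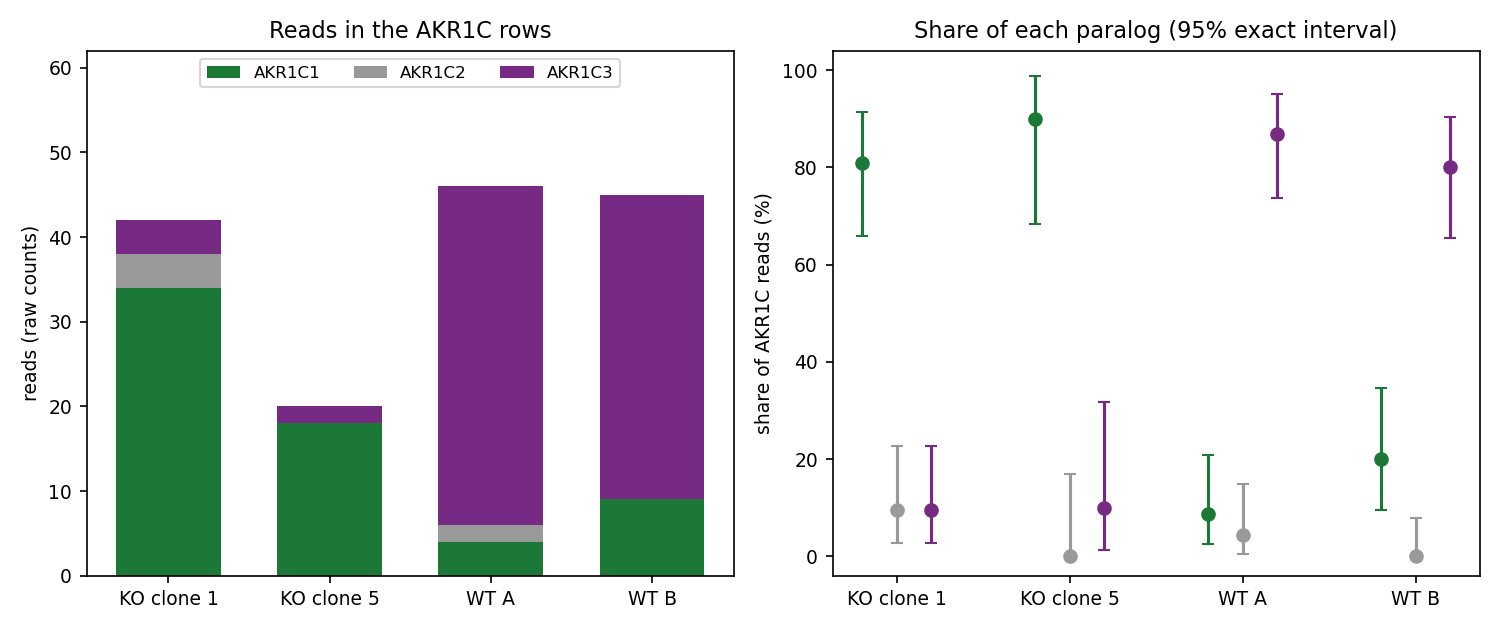
Reads in the AKR1C1, AKR1C2 and AKR1C3 rows of each library as stacked bars (left, raw counts), and the share of each gene in those reads (right, percent, bars are 95% exact binomial intervals of the counting error alone). AKR1C1 holds 81.0% and 90.0% of the reads in KO clones 1 and 5, and AKR1C3 holds 87.0% and 80.0% in WT A and WT B.

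The genes read around the cluster are given as a description. Their log2 fold changes are not weighed against those of AKR1C1 and AKR1C3, since the family was selected on this contrast. The AKR1C rows of the table, those at 0 reads included, span 4871901 to 5288470 on chromosome 10. Of other rows placed within 500 kb of that span, 4 had a mean of at least 10 reads (NET1, ASB13, FAM208B and GDI2). All 4 lie past its upper end, so the lower side of the cluster is not covered. At an adjusted p under 0.05, 0 of them passed in edgeR, DESeq2 or limma-voom, where edgeR called 2.19% of all genes tested. With 4 rows, nothing is read from this count. NET1 alone was below an unadjusted p of 0.05 in edgeR. The guanine nucleotide exchange factor gene NET1 had 145 and 103 reads in KO clones 1 and 5, against 78 and 107 in WT A and WT B, and a log2 fold change of 0.72 (SE 0.32, adjusted p = 0.284 by edgeR). GDI2, a regulator of Rab GTPases, had 440 and 726 reads in the KO clones and 714 and 904 in WT, and a log2 fold change of -0.24 (SE 0.27, adjusted p = 0.709 by edgeR). ASB13 and FAM208B had log2 fold changes of -0.22 and -0.02. The median ratio of KO clone 1 to KO clone 5 over the 4 rows was 0.732, with 3 of them lower in KO clone 1, against 49.9% of all genes tested.

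Across all 10505 genes tested in the same fit, 166 were higher and 64 lower in KO (adjusted p under 0.05, Benjamini-Hochberg, from edgeR's quasi-likelihood F test), 2.19% of the total. Of the 10 genes 9 entered it, and AKR1C1 (higher) and AKR1C3 (lower) were past that threshold. Nothing is read from this count, since the genes were selected on this contrast and each of the 2 passed the filter on low counts through the group in which it was high. The call of AKR1C3 ended without a scaling factor, and that of AKR1C1 ended without a scaling factor, in limma-voom and without KO clone 1, while DESeq2 gave neither an adjusted p. KO and WT values did not overlap in 5 of the 9 genes, 2 above (AKR1C1 and NQO1) and 3 below (AKR1C3, AKR1B1 and HMOX1). Among all genes tested 47.8% had groups that did not overlap.

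**Figure D2:**
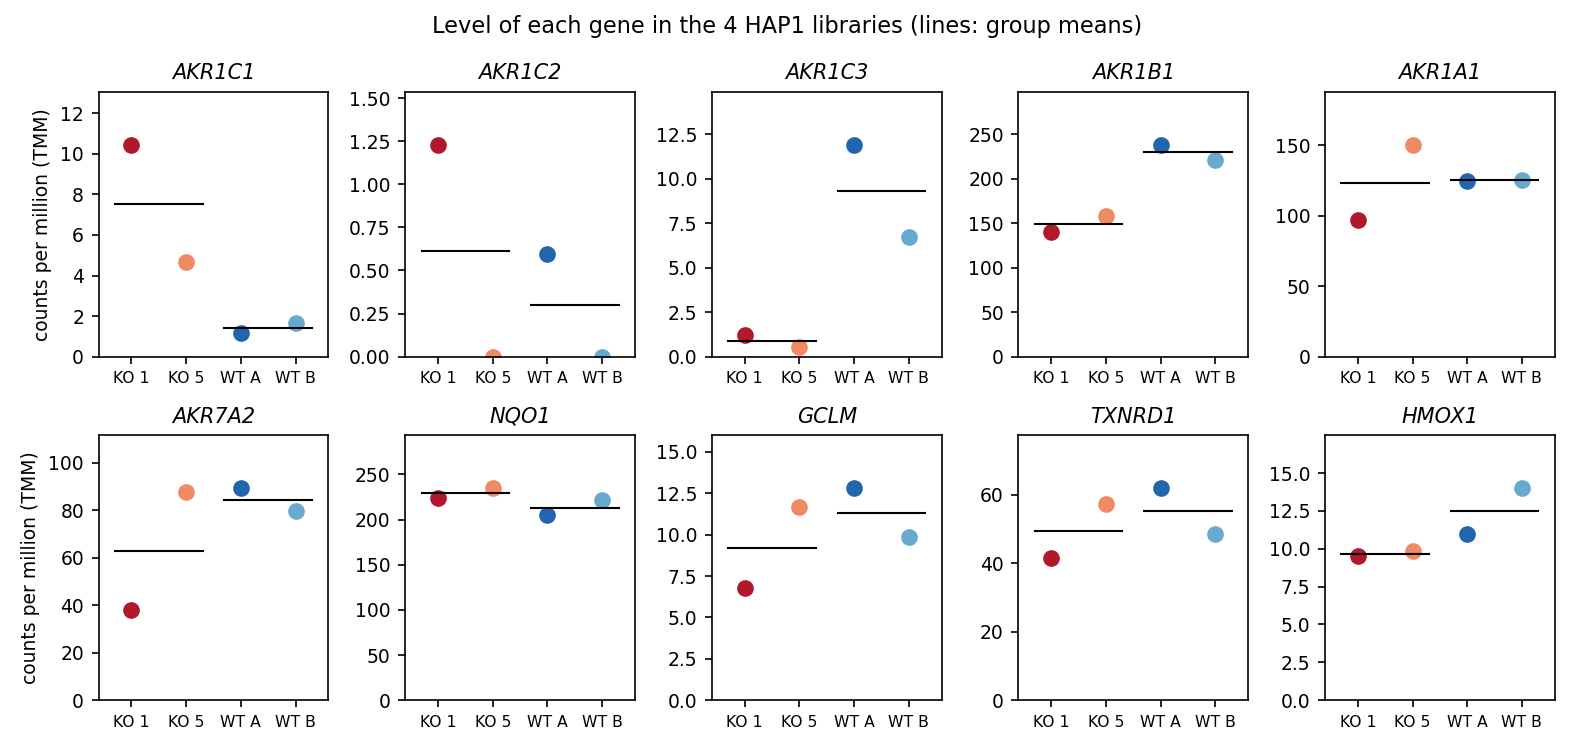
Level of each of the 10 genes in the 4 libraries, in CPM scaled by TMM (vertical axes start at 0 and differ between panels), with KO clones 1 and 5 left of WT A and WT B and black lines at the group means. Relative to their own levels AKR1C1 (above) and AKR1C3 (below) show the widest gaps between KO and WT, NQO1 and AKR1A1 have means close together, and AKR7A2 is low in KO clone 1 at 38.1 CPM.

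The other aldo-keto reductases were read far more deeply. AKR1B1, aldose reductase, which turns glucose into sorbitol, lies on chromosome 7 from 134442356 to 134459284 on the minus strand. It had 456 and 613 reads in KO clones 1 and 5, against 800 and 1187 in WT A and WT B, or 140 and 159 CPM against 238 and 221 CPM. Both KO clones lay below both WT libraries, at 149 ± 13.2 CPM in KO and 230 ± 11.8 CPM in WT (SD, n = 2 each), 1.54-fold lower with a log2 fold change of -0.62 (SE 0.25). Leaving out single libraries kept it between -0.72 and -0.53. The authors' deposited table gives AKR1B1 a log2 fold change of -0.63 (SE 0.26).

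AKR1A1, aldehyde reductase, lies on chromosome 1 from 45550543 to 45570049 on the plus strand and had 315 and 580 reads in KO clones 1 and 5, against 418 and 673 in WT A and WT B. Its levels were 96.7 and 150 CPM in the KO clones, one below and one above the WT values of 124 and 125 CPM. The means were 123 ± 37.7 CPM in KO and 125 ± 0.801 CPM in WT (SD, n = 2 each), with a log2 fold change of -0.02 (SE 0.28). The WT libraries were nearly alike for this gene, and its spread came from the KO clones.

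AKR7A2, which reduces succinic semialdehyde and aflatoxin aldehydes, lies on chromosome 1 from 19303965 to 19312144 on the minus strand. It had 124 and 339 reads in KO clones 1 and 5, against 300 and 427 in WT A and WT B, or 38.1 and 87.7 CPM against 89.2 and 79.6 CPM. KO clone 5 lay within the WT range and KO clone 1 below it, and KO clone 5 was 2.30 times KO clone 1. The group means, 62.9 ± 35.1 CPM in KO and 84.4 ± 6.81 CPM in WT (SD, n = 2 each), gave a log2 fold change of -0.42 (SE 0.35). Leaving out KO clone 5 gave -1.15 and leaving out KO clone 1 gave 0.06. Around AKR7A2, 10 rows within 500 kb with a mean of at least 10 reads, looked up after its values were seen, had a median ratio of KO clone 1 to KO clone 5 of 0.695 (range 0.483 to 1.59), with 8 of 10 lower in KO clone 1, against 49.9% of all genes tested.

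Of 28 rows in the table with an AKR gene symbol, 11 had any read and 17 had 0, AKR1C4, AKR1B10, AKR1B15 and AKR1D1 among them. Outside the 6 described, 5 rows had reads, none of them enough to enter the fit. AKR7L had 1 and 7 reads in KO clones 1 and 5, against 5 and 7 in WT A and WT B, and AKR7A3 had 1 and 0 reads in the KO clones, against 3 and 1 in WT. AKR1E2 and the pseudogene AKR1B1P3 each had 0 reads in both KO clones and 1 in each WT library, and the pseudogene AKR1B1P7 had 2 reads in WT B and 0 elsewhere.

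The 4 NRF2 targets outside the family had fitted log2 fold changes between -0.38 and 0.10. NQO1, which reduces quinones to hydroquinones, lies on chromosome 16 from 69706996 to 69726668 on the minus strand and had 730 and 906 reads in KO clones 1 and 5, against 688 and 1189 in WT A and WT B. Its levels were 224 and 234 CPM in the KO clones and 205 and 222 CPM in WT. The KO values lay just above the WT values, at 229 ± 7.30 CPM in KO and 213 ± 12.0 CPM in WT (SD, n = 2 each), with a log2 fold change of 0.10 (SE 0.24). A noncoding gene on the opposite strand, ENSG00000261602, shares 575 of the 2971 exon bases of NQO1, and the sources used here do not give whether strand was used, so reads of the pair may not be separated.

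GCLM, the modifier subunit of glutamate-cysteine ligase, the first enzyme of glutathione synthesis, lies on chromosome 1 from 93885199 to 93909456 on the minus strand. It had 22 and 45 reads in KO clones 1 and 5, against 43 and 53 in WT A and WT B, or 6.75 and 11.6 CPM against 12.8 and 9.88 CPM. KO clone 5 lay within the WT range and KO clone 1 below it. The means were 9.20 ± 3.46 CPM in KO and 11.3 ± 2.06 CPM in WT (SD, n = 2 each), with a log2 fold change of -0.27 (SE 0.36). TXNRD1, the cytosolic thioredoxin reductase, on chromosome 12 from 104215779 to 104350307 on the plus strand, had 135 and 221 reads in the KO clones, against 208 and 260 in WT. At 41.4 and 57.2 CPM in KO and 61.9 and 48.5 CPM in WT it showed the same order of libraries. The means were 49.3 ± 11.1 CPM in KO and 55.2 ± 9.48 CPM in WT (SD, n = 2 each), with a log2 fold change of -0.16 (SE 0.30). The ribosomal protein pseudogene RPL18AP3 lies in an intron of TXNRD1, shares 0 of its exon bases and had 13522 and 22744 reads in the KO clones and 21762 and 29444 in WT.

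HMOX1, haem oxygenase 1, which breaks haem down to biliverdin, iron and carbon monoxide, lies on chromosome 22 from 35380361 to 35394214 on the plus strand. It had 31 and 38 reads in KO clones 1 and 5, against 37 and 75 in WT A and WT B, or 9.52 and 9.83 CPM against 11.0 and 14.0 CPM. Both KO values lay below both WT values, at 9.67 ± 0.223 CPM in KO and 12.5 ± 2.11 CPM in WT (SD, n = 2 each), with a log2 fold change of -0.38 (SE 0.33). The gap between KO clone 5 and WT A was small beside the gap between the WT libraries. The authors' deposited table lists 6 of the 10 genes, and AKR1C1, AKR1C2, AKR1C3 and GCLM are not among them. There the log2 fold changes were -0.02 for AKR1A1, -0.43 for AKR7A2, 0.10 for NQO1, -0.17 for TXNRD1 and -0.38 for HMOX1.

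**Figure D3:**
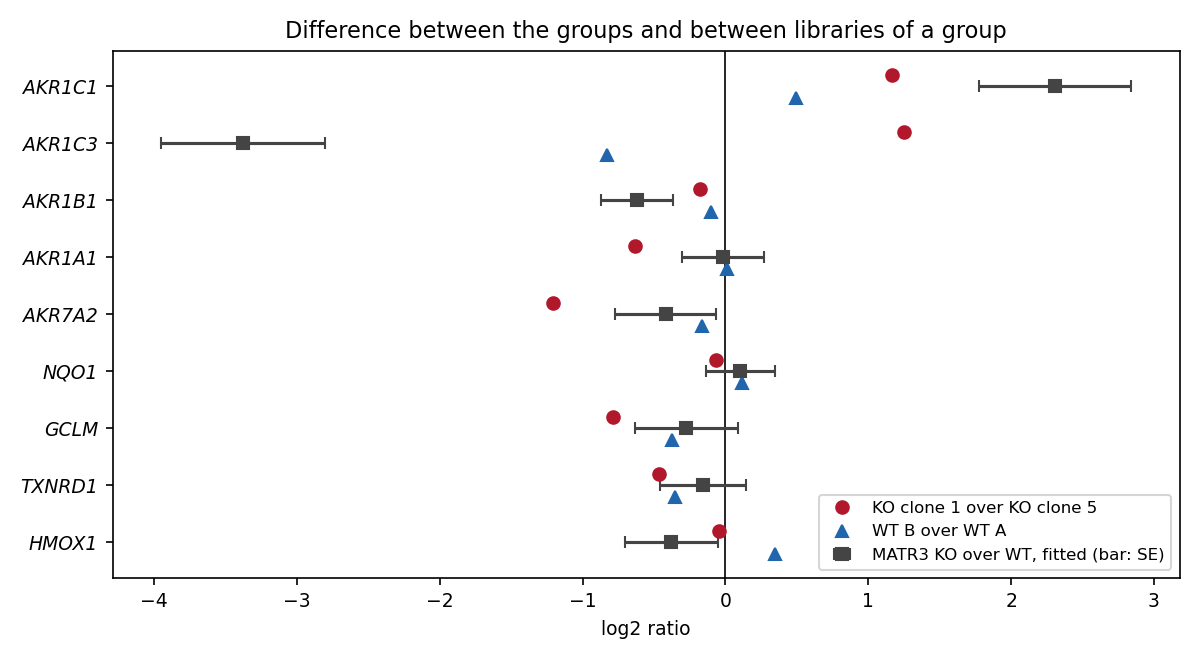
Fitted log2 fold change of MATR3 KO over WT (squares, bars are the SE) beside the log2 ratio of KO clone 1 over KO clone 5 (circles) and of WT B over WT A (triangles) for the 9 genes that entered the fit. AKR1C1 and AKR1C3 lie at 2.31 and -3.38. Nothing is read from their distance to the ratios between libraries of a group, since the genes were selected on this contrast. AKR7A2, AKR1A1, GCLM and TXNRD1 differ more between the KO clones than between KO and WT.

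The KO clones differed from each other in several of these genes. Between the clones, 3 of the 9 genes were at least 2-fold apart in CPM, AKR1C1 (higher in KO clone 1), AKR7A2 (lower in KO clone 1) and AKR1C3, which had only 4 and 2 reads, against 10.4% of all genes tested. Between the WT libraries 0 of the 9 genes were 2-fold apart, against 6.73% of all genes tested. KO clone 1 was below KO clone 5 in 7 of the 9 genes, all but AKR1C1 and AKR1C3, while 49.9% of all genes tested were lower in KO clone 1. For AKR1A1, AKR7A2, GCLM and TXNRD1 the sign of the difference between KO and WT changed when single libraries were left out, with ranges of -0.37 to 0.27, -1.15 to 0.06, -0.73 to 0.05 and -0.41 to 0.06.

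Levels of different genes are set side by side after division by coding length (CPM per kilobase of coding sequence, n = 2 per group, SD). Long-read counts need not grow with the length of a transcript, so the order without this division is given as well. In the KO clones the order was NQO1 at 279 ± 8.88, AKR1B1 at 157 ± 13.9, AKR1A1 at 127 ± 38.7, AKR7A2 at 58.4 ± 32.6, TXNRD1 at 25.3 ± 5.72, HMOX1 at 11.2 ± 0.258, GCLM at 11.2 ± 4.21, AKR1C1 at 7.79 ± 4.22 and AKR1C3 at 0.901 ± 0.518. Neighbours whose KO values overlapped were AKR1B1 and AKR1A1, HMOX1 and GCLM, GCLM and AKR1C1, and AKR1C3 and AKR1C2. In WT the order was NQO1 at 259 ± 14.6, AKR1B1 at 242 ± 12.4, AKR1A1 at 128 ± 0.822, AKR7A2 at 78.4 ± 6.32, TXNRD1 at 28.3 ± 4.87, HMOX1 at 14.5 ± 2.44, GCLM at 13.8 ± 2.50, AKR1C3 at 9.60 ± 3.79 and AKR1C1 at 1.48 ± 0.356. In WT the overlapping neighbours were NQO1 and AKR1B1, HMOX1 and GCLM, and GCLM and AKR1C3. AKR1C2 was last in both groups. AKR1C1 and AKR1C3 held opposite places at the low end of the 2 orders. In CPM without division the order of the means changed in 1 place, with AKR1B1 (230 ± 11.8 CPM) ahead of NQO1 (213 ± 12.0 CPM) in WT, so which of the 2 leads in WT depends on the scale.

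The core of the antioxidant response element, TGACNNNGC, was looked for on both strands of RefSeq promoter windows (GRCh38.p14, 250 bases before to 50 after each start). The table gives such windows for 9 of the 10 genes, 13 windows in all, and 5 windows of 3 genes (AKR7A2, GCLM and TXNRD1) held the motif, against 13.3% of all 35116 windows of 300 bases. The 2 windows of AKR7A2 overlap and hold the same matches. A match describes letters and is not a site of binding, and a window without one says nothing of elements farther away. The 3 promoters are shown around a match each, in the direction of the gene, with the 9 matching bases in capitals, since these are the windows that hold the motif. The KO and WT levels of all 3 genes overlapped.
GCLM, chr1:93909445-93909474, minus strand, 34 bases before the start: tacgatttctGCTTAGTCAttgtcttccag
TXNRD1, chr12:104286920-104286949, plus strand, 102 bases before an inner start: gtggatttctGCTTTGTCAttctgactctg
AKR7A2, chr1:19312283-19312312, minus strand, 156 bases before the start: ccgggtcagcTGACCGCGCgccaccgcccc

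The GCLM and TXNRD1 stretches carry the motif in the reverse orientation. In GENCODE 44 the TXNRD1 stretch lies within an exon of TXNRD1, 12 of the 30 bases of the GCLM stretch lie in an exon of GCLM and the AKR7A2 stretch lies outside the gene. AKR7A2 held 3 matches in each of its windows and the outer start of TXNRD1 held 2. The windows of AKR1C1, AKR1C2, AKR1C3, AKR1B1, AKR1A1 and NQO1 had no match.

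Other genes, 174 in 8 lists by role, were counted in the same fit. There the median log2 fold change of all genes tested was 0.00, and 1123 genes were higher and 595 lower at an unadjusted p under 0.05 in edgeR. The lists are called pathway lists here. They also hold steroid and prostaglandin enzymes and potassium channel beta subunits, which were listed for shared substrates or fold with aldo-keto reductases. Over the lists 127 genes were tested. At an edgeR adjusted p under 0.05, 0 were higher and 1 was lower in KO, where 2.19% of all 10505 genes tested were called. The 1 gene was HPGD, of the steroid and prostaglandin list. At an unadjusted p under 0.05, 16 were higher and 8 lower. KO and WT values did not overlap in 73 of the 127, against 47.8% of all genes tested. DESeq2 called GSR and IREB2 and limma-voom called HPGD. The median of the lists was -0.14.

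Of the 18 NRF2 regulators 16 were tested, with a median log2 fold change of 0.14, and 0 passed in edgeR, DESeq2 or limma-voom. At an unadjusted p under 0.05, 4 were higher and 0 lower. NFE2L2, which encodes NRF2 itself, had 40 and 57 reads in KO clones 1 and 5, against 32 and 33 in WT A and WT B, or 13.5 ± 1.75 CPM in KO and 7.84 ± 2.38 CPM in WT (SD, n = 2 each). Its log2 fold change was 0.82 (SE 0.35, adjusted p = 0.262 by edgeR), with both KO values above both WT values. MAFG, a small MAF partner of NRF2, had 0.97 (SE 0.35, adjusted p = 0.179 by edgeR). CAND1, which exchanges the receptors of cullin ligases, had 0.92 (edgeR adjusted p = 0.125), and CUL3 had 0.95 (edgeR adjusted p = 0.303), with 0.35 without KO clone 1 and 1.56 without WT B.

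Of 40 genes of glutathione synthesis and use 29 were tested, with a median of -0.20, and 0 passed in edgeR or limma-voom and 1, GSR, in DESeq2. At an unadjusted p under 0.05, 2 were higher and 2 lower. GCLC, the catalytic partner of GCLM, had 143 and 231 reads in KO clones 1 and 5, against 81 and 133 in WT A and WT B, or 51.8 ± 11.2 CPM in KO and 24.4 ± 0.496 CPM in WT (SD, n = 2 each). Its log2 fold change was 1.08 (SE 0.30, adjusted p = 0.0862 by edgeR), set beside -0.27 (SE 0.36) for GCLM. GSR, glutathione reductase, had 1292 and 889 reads in the KO clones, against 439 and 869 in WT, and a log2 fold change of 1.10 (SE 0.29, adjusted p = 0.0736 by edgeR and 0.0211 by DESeq2). CHAC2, which degrades glutathione, and GPX3, a secreted glutathione peroxidase, had -0.80 and -0.81 (edgeR adjusted p = 0.220 and 0.268). GPX3 moved with single libraries, to -0.38 without KO clone 1, -1.46 without KO clone 5, -0.70 without WT A and -0.93 without WT B.

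Of 24 thioredoxin, peroxiredoxin and superoxide genes 19 were tested, with a median of -0.21, and 0 passed with any of the 3 tools, while 3 were higher and 0 lower at an unadjusted p under 0.05. SESN1, a sestrin, had a log2 fold change of 1.07 (edgeR adjusted p = 0.112), its relative SESN3 1.56 (edgeR adjusted p = 0.203) and SOD2, the mitochondrial superoxide dismutase, 1.11 (edgeR adjusted p = 0.208). SESN3 rested on KO clone 1, with 62 and 17 reads in KO clones 1 and 5 against 8 and 27 in WT A and WT B, and its values in CPM overlapped between KO and WT. Its log2 fold change was 0.19 without KO clone 1, 2.28 without KO clone 5 and 2.23 without WT B. TXNRD2, the mitochondrial counterpart of TXNRD1, had -0.73 (edgeR adjusted p = 0.332). All 13 genes of NADPH supply were tested, with a median of -0.15, and 0 passed with any of the 3 tools and 1 was higher at an unadjusted p under 0.05. NNT, the mitochondrial transhydrogenase, had 0.73, MTHFD1 0.53, IDH2 -0.43 and PGD -0.39 (edgeR adjusted p = 0.225, 0.412, 0.543 and 0.554).

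Of 18 haem and iron genes 15 were tested, with a median of -0.03, and 0 passed in edgeR or limma-voom and 1, IREB2, in DESeq2, while 2 were higher and 1 lower at an unadjusted p under 0.05. IREB2, which binds RNA and responds to iron, stood at 1.09 (SE 0.28, adjusted p = 0.0599 by edgeR and 0.0111 by DESeq2). CPOX, a haem synthesis enzyme, had 1.78 (SE 0.48, adjusted p = 0.0781 by edgeR) and FLVCR1, known as a haem exporter, 0.74 (edgeR adjusted p = 0.360). Both moved with single libraries. CPOX went to 1.15 without KO clone 1, 2.24 without KO clone 5 and 2.81 without WT B. FLVCR1 went to 1.54 without WT B and 0.27 without WT A. Of 29 quinone, carbonyl and conjugation enzymes 19 were tested, with a median of -0.21, and 0 passed with any of the 3 tools, while 1 was higher and 3 lower at an unadjusted p under 0.05. TRIM16 and its partial copy TRIM16L, between which reads could be split, had -1.17 and -1.08 (edgeR adjusted p = 0.145 and 0.300), AIFM2, a quinone reductase that guards against lipid peroxidation, -0.78 (edgeR adjusted p = 0.223) and ALDH9A1, an aldehyde dehydrogenase, 0.99 (edgeR adjusted p = 0.294).

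Of 29 steroid and prostaglandin enzymes, which share substrates with the AKR1C group, 15 were tested, 1 fell and 0 rose in edgeR, with a median of -0.28, and 3 were higher and 1 lower at an unadjusted p under 0.05. limma-voom called HPGD as well and DESeq2 called 0. HPGD, the dehydrogenase that inactivates prostaglandins, had 2 and 4 reads in KO clones 1 and 5, against 28 and 33 in WT A and WT B, or 0.824 ± 0.298 CPM in KO and 7.24 ± 1.54 CPM in WT (SD, n = 2 each). It fell with a log2 fold change of -3.04 (SE 0.54, adjusted p = 0.0132 by edgeR), between -3.48 and -2.75 when single libraries were left out. The call was lost without a scaling factor (edgeR adjusted p = 0.0583), and DESeq2 gave HPGD no adjusted p. Like AKR1C3, HPGD passed the filter on low counts through WT. HSD17B14 had 1.07, HSD17B11 0.87, STS, steroid sulfatase, 1.42 and HSD17B4 -0.53 (edgeR adjusted p = 0.138, 0.181, 0.241 and 0.387). Of the 3 potassium channel beta subunits, whose fold is that of aldo-keto reductases, KCNAB2 alone was tested, at -1.09 (SE 0.43, adjusted p = 0.223 by edgeR).

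**Figure D4:**
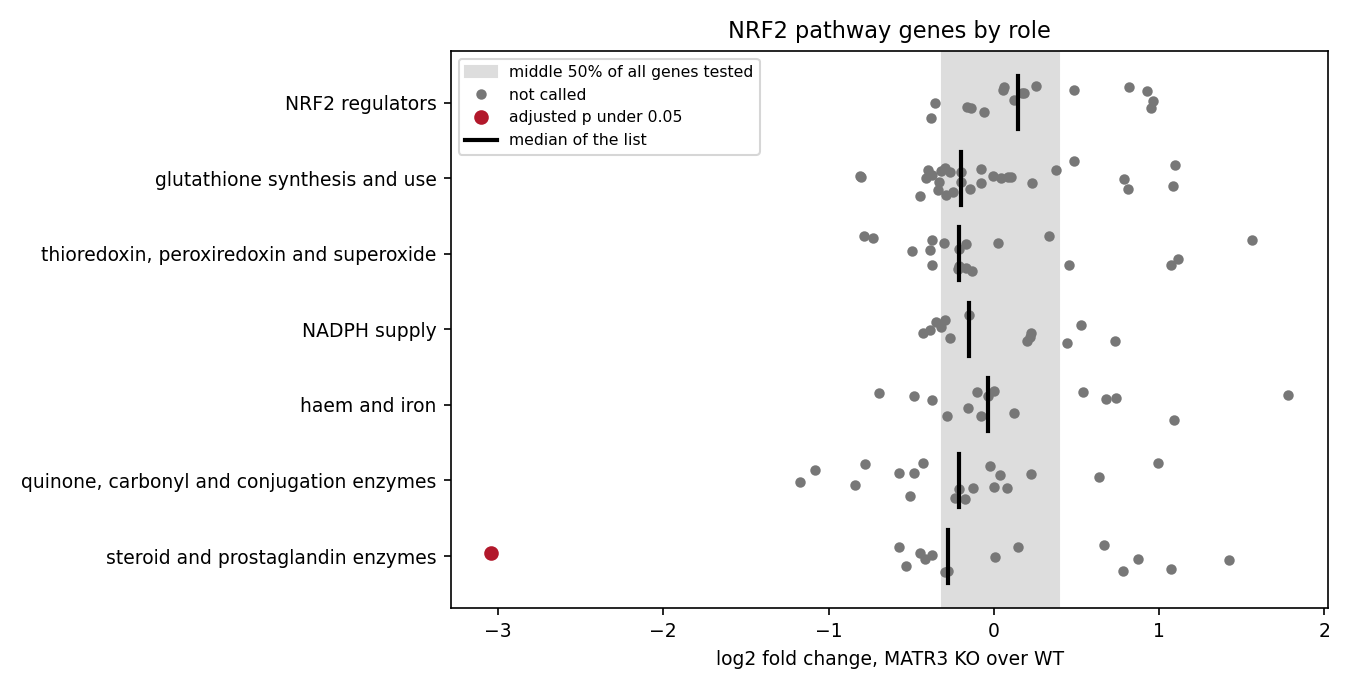
Fitted log2 fold change of MATR3 KO over WT (horizontal axis) for each tested gene of 7 pathway lists (rows), with the list medians as black bars and the middle 50% of all genes tested, -0.31 to 0.39, as the grey band. HPGD, of the steroid and prostaglandin list, lies at -3.04 and is the single gene past an edgeR adjusted p of 0.05. The list medians lie between -0.28 and 0.14.

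The genes with a pattern over the 4 libraries most like that of AKR1C3, by Euclidean distance between centred log2(CPM + 0.5) profiles over 8492 genes averaging at least 20 reads, were CCND2, DPP10-AS1, CADM2, SERGEF and THUMPD2, at distances of 0.647, 0.747, 1.19, 1.20 and 1.22. CCND2 had 7 and 4 reads in KO clones 1 and 5, against 35 and 44 in WT A and WT B, and DPP10-AS1 had 28 and 14 against 109 and 119. All 5 were low in both KO clones and high in both WT libraries, which the choice by likeness fixes.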

How the data were processed

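The authors deposited raw read counts per gene for 4 libraries, per the file headers; 0 count columns were left unused. The submitters' processing notes name the build hg38 and the programs DESeq2 1.22.2, DESeq, Subread, SAMtools and minimap2. The sources used here do not give their settings, the annotation or the use of strand. A deposited table of the authors' own comparison gives log2 fold changes with errors for 6479 genes, per the file headers.

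KO and WT were compared in edgeR 4.0.16 (R 4.3.3) with filterByExpr (minimum count 10, minimum total 15), TMM, a robust quasi-likelihood fit, a two-sided F test and Benjamini-Hochberg adjustment over 10505 genes, threshold 0.05. CPM used TMM-scaled library sizes. Counts were also simulated for 10505 genes with the same spread for every gene (biological coefficient of variation 0.21). Of the changed genes that passed the count filter, the fit recovered 90.4% at 4-fold and 29.8% at 2-fold. It also called 9 unchanged genes. Real genes differ in spread, so these shares need not hold for genes with few reads, such as the AKR1C rows. Positions and coding sequences came from GENCODE 44 (36024 rows placed by symbol, 1122 by an older symbol, 4486 by identifier, 19030 not placed), promoters from RefSeq.

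The genes and lists were chosen with earlier results of these data known. Named were the 10 genes, other AKR rows with a read, neighbours within 500 kb of the span of all AKR1C rows with a mean of at least 10 reads, of each list the called genes and up to 4 others with the lowest p, and the 5 genes most like AKR1C3 with a mean of at least 20 reads. A list gene and a marker that these rules cover are not reported here. Alternatives were other or no scaling, no filter, a mean of at least 50 reads, DESeq2 1.42.0, limma-voom (limma 3.58.1), mitochondrial genes left out, AKR1C rows summed and each library left out.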

Additional observations from a re-analysis of the deposited data

How the results depend on the processing

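Over the 9 tested genes and their alternatives, 111 log2 fold changes were compared with the values given above: 105 moved by less than the spread between libraries, 6 by more, and 0 of the called values changed sign. The 2 calls among these genes became 0 without a scaling factor, 0 at a mean of at least 50 reads (which leaves out AKR1C1 and AKR1C3), 0 with DESeq2 and 1 with limma-voom, and 1 to 3 when single libraries were left out, where AKR7A2 joined without KO clone 5. Over all genes the 230 calls (166 higher) became 31 (20) without a scaling factor, 568 (385) without a count filter, 83 (71) at a mean of at least 50 reads, and 195 to 1035 (91 to 674) without single libraries, with 1035 (674) without KO clone 5 and 247 (91) without WT A. The 1 pathway call became 0 without a scaling factor, 6 without a count filter, 0 at a mean of at least 50 reads, 2 with DESeq2, and 2 to 10 without single libraries, with 10 without KO clone 5. The summed AKR1C log2 fold change ranged from -1.06 to 0.25 without single libraries and had no value at a mean of at least 50 reads. Of 336 values of the 30 named pathway genes, 318 kept their side of the threshold, 17 passed it newly, 1 no longer passed and 0 changed sign. The cause of these differences was not tested.

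No paired analysis was possible because the KO numbers are clone numbers and the WT columns carry none. With 20 to 46 reads in the AKR1C rows of a library, and 6 reads of AKR1C2 in all, depth limits what can be said of these paralogs. Where leaving out a library leaves 1 in its group, that library is taken to vary like the others.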
